A study of Mus musculus with 66 samples.

Results

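The genes described here are those whose levels in blood mononuclear cells differed between postnatal day 12 (P12) and postnatal day 17 (P17) in mouse pups that stayed in normal air. The comparison used every sample titled as P12 normoxia (11 pups) and as P17 normoxia (12 pups), 23 of the 66 arrays in the series. All pups were C57BL/6 mice with no engineered allele named. Normoxia meant 21% oxygen from postnatal day 7 in the same kind of chamber in which the other litters received 75% oxygen, the oxygen-induced retinopathy model, and the chamber period ended at P12, so that the P17 pups had spent 5 more days outside it. Of the 11 P12 normoxia titles, 10 carry a mouse number that a P12 hyperoxia title carries too, whereas the numbers in the names of their data files differ from the titles in all 11 and repeat no P12 hyperoxia file. The oxygen label of all 11 reads normoxia, and no such mismatch occurs in the other groups. The group therefore rests on the title and the oxygen label, and the labels do not settle which pup each of these arrays came from. The deposited ratios of these arrays correlated with those of P12 hyperoxia arrays at no more than 0.898, so none holds the same values as a hyperoxia array. The pups were still with a nursing dam. Whole litters were randomised to one oxygen level and the labels do not give the litter of a pup, so arrays of one group may include littermates, and the p-values below treat the pups as independent.

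Blood at these ages is changing over from the fetal to the adult pattern of blood formation. Eosinophils are granulocytes that store cationic proteins and ribonucleases in their granules, neutrophils are granulocytes that carry proteases and their inhibitors, and T cells leave the thymus in growing numbers in the weeks after birth. Mononuclear cells were taken from a density gradient (Ficoll-Paque), on which most mature granulocytes sink below the collected layer. Lower RNA of a cell type in such a bulk sample can come from fewer cells of that type or from less RNA per cell, and these cannot be told apart here.

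Each array carried blood RNA and a commercial mouse reference RNA in the dyes Cy3 and Cy5, and every value below is log2(Cy3/Cy5) unless stated. The labels place the blood RNA in Cy5, but the values go against them. The alpha globin gene Hba-a1 lay between 17.8 and 18.2 in Cy3 and between 10.1 and 12.0 in Cy5 (log2 intensity, 23 arrays), the leukocyte gene Ptprc reached 12.7 in Cy3 and 8.12 in Cy5, and the collagen gene Col1a1, a gene of connective tissue, reached 6.87 in Cy3 and 10.7 in Cy5. The Cy5 intensities also correlated more closely between arrays (median r of 0.993) than the Cy3 intensities (0.948). Cy3 was therefore read as blood; were the labels right, every direction of a ratio would turn, while values given for Cy3 alone would keep their sign. The high globin signal also shows that red cell RNA was present in these preparations. The design text of the series names retinal cells as its material, whereas titles and source names give mononuclear cells of blood, and the blood genes above were bright. Few genes of other tissues could be tested (2 of retina, 4 of muscle, 1 of liver, 2 of endothelium and 4 of connective and fat tissue), and 0 of them passed where 1.86% of all genes did. Other settings gave at most 1 call in such a list: for retina with median centring, for muscle without P12 replicates 1 and 2 and P17 replicate 4, and for connective and fat tissue with either of these or with the scanner software's signals. Of 12680 genes, median centring called 388, the software's signals 300 and the fit without those 3 arrays 779.

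Scan day went with age. Of the 11 P12 arrays 10 were scanned on the first of 2 days, whereas of the 12 P17 arrays 4 were scanned on the first day and 8 on the second, so the genes with the largest differences are given also with scan day as a block and among the arrays of the first day alone, singly or as a range, and some of the lists with the block. In Cy3, 43.9% ± 4.87 (SD, n = 11) of the probes were well above background at P12 and 38.0% ± 4.86 (SD, n = 12) at P17, a difference with an adjusted p of 0.0190 in a two-sided permutation test over 4 array values. On the first day alone this difference was -3.07 percentage points with an exact permutation p of 0.269. The mean log2 ratio of the spike-in controls was 1.22 ± 0.28 at P12 and 1.87 ± 0.71 at P17 (SD, n = 11 and n = 12; permutation test, adjusted p = 0.0190), and on the first day alone the difference was -0.07. P12 replicates 1 and 2 and P17 replicate 4 stood apart from the rest. Their median correlation with the other arrays was 0.806 to 0.843, against 0.860 to 0.930 for the other 20. These arrays also had the lowest red cell ratios, of 1.97 to 2.17.

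Of 24711 probes with signal, 448 (1.81%) passed an adjusted p of 0.05, of which 175 were higher and 273 lower at P17. With 1 probe for each named gene, the brightest in Cy3, 236 of 12680 genes passed (1.86%), 104 of them higher (0.820%) and 132 lower (1.04%). With median centring in place of loess the median of all probes was -0.22 and 1.73% of the calls were higher, against 39.1% in the fit used here and 52.6% in Cy3 alone, so differences of that size depend on the scaling. Of the 236 genes, 159 kept their direction with an unadjusted p under 0.05 with scan day as a block, with slide as a block and with the scanner software's own signals, 65 higher and 94 lower. With scan day as a block 18 genes (0.142%) passed the adjusted threshold, 2 of them higher and 16 lower. With slide as a block 69 passed, 3 higher and 66 lower, so that few of the higher calls passed under either block.

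Several genes known from eosinophils were lower at P17. The eosinophil-associated ribonucleases are a family of secreted RNA-cutting proteins of the granules, whose genes lie on chromosome 14 in 2 separate groups. Their upstream sequences are shown because some of the copies are close: the 150 bases before the start in Ear1 and Ear2 are identical over the 148 bases that overlap after a shift of 2 bases, and Ear10 matches Ear1 at 91.9%. Ear6, of the other group, matches Ear1 at 65.4% of 130 bases and its neighbour Rnase2a at 93.8% of 128, while Rnase2a matches Ear1 at 53.5%. Array probes to close copies may pick up one another's RNA, so the 5 genes below are not 5 independent measurements. The sequences are from RefSeq (GRCm38.p6), 5′ to 3′ in the direction of the gene, and end at the base before the start. Capitals mark matches on either strand to TTGCNNAA, the core of the motif of C/EBP factors, which 5.46% of all 32851 promoter windows of this length hold.
Ear1 (chr14:43819640-43819789, minus strand): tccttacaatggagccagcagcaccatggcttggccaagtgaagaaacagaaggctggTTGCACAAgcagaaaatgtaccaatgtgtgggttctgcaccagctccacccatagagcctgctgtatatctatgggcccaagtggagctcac
Ear2 (chr14:44102504-44102653, plus strand): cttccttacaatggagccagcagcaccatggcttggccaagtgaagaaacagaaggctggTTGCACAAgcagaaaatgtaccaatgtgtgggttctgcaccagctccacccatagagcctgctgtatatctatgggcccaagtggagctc
Ear10 (chr14:43923597-43923746, minus strand): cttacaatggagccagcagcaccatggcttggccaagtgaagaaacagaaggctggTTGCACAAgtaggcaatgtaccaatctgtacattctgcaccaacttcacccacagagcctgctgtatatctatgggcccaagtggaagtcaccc
Ear6 (chr14:51853618-51853767, plus strand): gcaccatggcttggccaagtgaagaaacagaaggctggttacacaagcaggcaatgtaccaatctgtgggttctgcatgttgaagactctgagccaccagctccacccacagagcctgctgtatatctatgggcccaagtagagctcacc

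All 5 ribonuclease genes that could be tested were called lower at P17, where 1.04% of all genes were, with a median of -1.10 (this set of genes was put together after their values had been seen). With the scanner software's signals 0 of the 5 were called and the median was -0.91, while 5 were called with slide as a block and 3 with scan day as a block. Ear1 ranged from 2.04 to 3.89 at P12 with a median of 2.93, and from 0.40 to 2.10 at P17 with a median of 1.49. In 11 of 12 P17 samples it was below the lowest P12 sample. The difference was -1.48 ± 0.20 (SE), 2.78-fold lower, with an adjusted p of 0.000804. Rnase2a ranged from 2.67 to 4.34 at P12 (median 3.37) and from 1.13 to 2.54 at P17 (median 2.17). Its groups did not overlap, and it was 2.35-fold lower (-1.23 ± 0.19, adjusted p = 0.00178). It was not among the 159 genes that held with scan day as a block, slide as a block and the software's signals. Ear10 fell by 1.10 ± 0.19 (adjusted p = 0.00474) from 2.01 to 3.63 at P12 to 0.71 to 1.99 at P17, also without overlap. Ear6 was lower by -0.997 ± 0.176 (adjusted p = 0.00539), with 10 of 12 P17 samples below the lowest P12 sample. Ear2 differed by -0.99 ± 0.19 (adjusted p = 0.0110) without overlap, but its difference was 0.94 with the scanner software's signals, the opposite direction. Ranges that did not overlap with P17 below P12 were seen for 9 of the 24711 probes (0.0364%), which besides Ear2, Ear10 and Rnase2a named S100a11 and Tbc1d8, genes chosen after their values were seen.

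Ccr3 and Siglecf, other markers of eosinophils, were called lower too, while Prg2 and Epx were near background at P17. Prg2, which encodes the major basic protein of the granules, lay between 0.57 and 2.81 at P12 (median 1.79) and between -0.07 and 1.37 at P17 (median 0.15). All but 1 of the 12 P17 samples were below the lowest P12 sample, and the fitted difference was -1.28 ± 0.25 (adjusted p = 0.0110). Its Cy3 signal was well above background on 11 of 11 P12 arrays and on 4 of 12 P17 arrays. Prg2 thus passed the filter through the P12 arrays only, its P17 ratio is close to the floor, and its call is no support beside the others. Ccr3, the eotaxin receptor that draws eosinophils into tissue, ranged from 1.04 to 3.37 at P12 (median 1.71) and from 0.12 to 1.69 at P17 (median 0.73). It was 2.57-fold lower (-1.36 ± 0.26, adjusted p = 0.00959), again with 11 of 12 P17 samples below every P12 sample. Siglecf, an inhibitory lectin on mouse eosinophils, ranged from 1.02 to 2.66 at P12 (median 1.68) and from 0.12 to 1.64 at P17 (median 0.67), and was lower by -1.02 ± 0.20 (adjusted p = 0.0121). Its second probe was lower by -0.70 (adjusted p = 0.0179). Epx, eosinophil peroxidase, was not called (-0.31 ± 0.12, adjusted p = 0.148). It was well above background in Cy3 on 6 of 11 P12 arrays and on 0 of 12 P17 arrays, and its Cy3 level was at least 1.19-fold higher at P12, taking as the P17 level the higher of its own signal and the lowest signal among probes well above background on each array.

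Cebpe and Inpp5j were lower as well. Cebpe, a transcription factor needed for the late steps of granulocyte development, went from between 1.53 and 3.51 (median 2.23) to between 0.43 and 2.15 (median 1.29), a difference of -1.26 ± 0.24 (adjusted p = 0.0104). Inpp5j, an inositol phosphatase, went from between 0.99 and 2.88 (median 1.68) to between 0.03 and 1.18 (median 0.54), a difference of -1.25 ± 0.19 (adjusted p = 0.00197), and its second probe gave -0.27 (0.0474). Of the list of eosinophil, basophil and mast cell genes, 7 of 8 could be tested. Prg2, Epx and Ms4a2 were tested through the P12 arrays only. Of the other 4, Siglecf was called lower, against 1.04% of all genes, and Mcpt8, Cpa3 and Prss34 were not, with adjusted p from 0.142 to 0.397. With scan day as a block 0 of the 7 were called. The mean log2 Cy3 signal over the list ran from 6.25 to 7.75 at P12 and from 6.16 to 6.72 at P17. The basophil protease Mcpt8 gave -0.51 ± 0.19 with an adjusted p of 0.142.

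**Figure D1:**
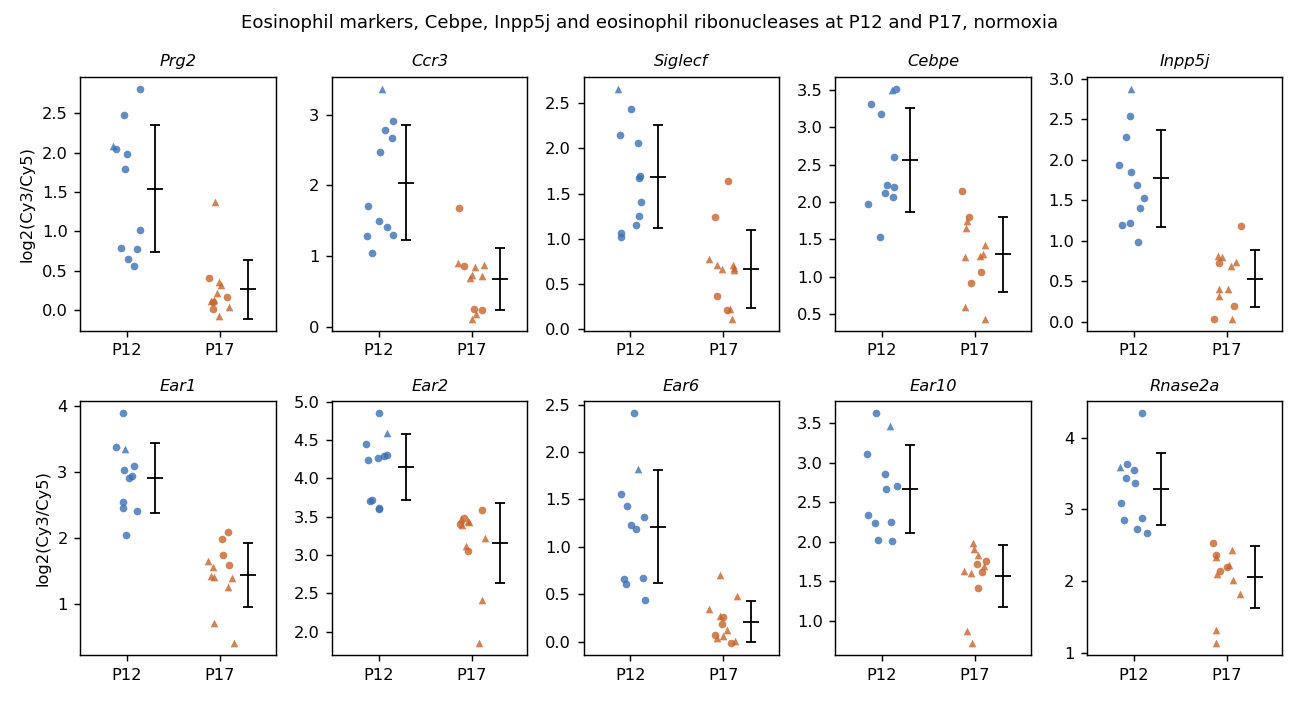
Log2(Cy3/Cy5) per array of eosinophil markers, Cebpe, Inpp5j and the eosinophil ribonucleases at P12 (blue, n = 11) and P17 (orange, n = 12); circles are arrays of the first scan day and triangles of the second, and black bars show the mean ± SD. The P17 samples of Ear2, Ear10 and Rnase2a all lie below every P12 sample.

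For 9 of these genes (the 5 ribonucleases, Ccr3, Siglecf, Cebpe and Inpp5j, put together because they were called) the difference lay between -1.52 and -0.92 with scan day as a block and between -1.14 and -0.72 among the 14 arrays of the first day. The block left 4 of the 9 past the threshold: Inpp5j (adjusted p = 0.0299), Ear1 and Ear6 (0.0368 each) and Ear10 (0.0478). The P17 ratios of Ear6 averaged 0.13 on the first day and 0.26 on the second, as low as those of Prg2 (0.18 and 0.31). The P17 level of Ear6 may therefore lie near the floor. In Cy3 alone all 9 were called, with differences of -1.58 to -1.06. Without the 3 arrays that stood apart, all 5 ribonuclease genes were called, where 507 of all 12680 genes were called lower. The reference was not well above background on any array for Ccr3 and Siglecf, and on 1 of 23 for Ear1, so that these ratios mostly follow the blood channel.

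A second cluster of lower genes held the stefin A family, small inhibitors of cysteine proteases whose genes neighbour each other on chromosome 16 and are known from neutrophils. The upstream 150 bases of Stfa1, Cstdc5 and Stfa3 are shown for their likeness. Stfa1 and Cstdc5 are identical at 94.6% of 129 overlapping bases after a shift of 21, and Stfa1 and Stfa3 at 76.4% of 148. Capitals mark TTGCNNAA as above and the GATA letters AGATAA or TGATAA on either strand, which 9.65% of all promoter windows of this length hold. These matches describe the letters alone.
Stfa1 (chr16:36276998-36277147, plus strand): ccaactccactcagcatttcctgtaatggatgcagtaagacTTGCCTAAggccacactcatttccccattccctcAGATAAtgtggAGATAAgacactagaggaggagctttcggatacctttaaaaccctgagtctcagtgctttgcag
Cstdc5 (chr16:36367571-36367720, minus strand): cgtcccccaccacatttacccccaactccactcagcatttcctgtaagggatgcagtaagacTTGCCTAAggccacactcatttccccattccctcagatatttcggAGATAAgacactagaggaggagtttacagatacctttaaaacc
Stfa3 (chr16:36455393-36455542, minus strand): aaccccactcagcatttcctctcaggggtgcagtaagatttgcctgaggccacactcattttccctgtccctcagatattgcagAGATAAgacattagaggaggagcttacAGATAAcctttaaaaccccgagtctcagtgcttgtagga

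In the stefin list 4 of 7 tested members were called lower, against 1.04% of all genes, with a median of -1.46. The calls turned on the setting, with 0 of 7 called with scan day as a block (median -1.40), 0 with slide as a block (-1.79) and 1 with the scanner software's signals (-1.30). Leaving out 1 array at a time took the call from Stfa1 for 18 of the 23 arrays, from Cstdc4 for 15 and from Cstdc5 for 8. Besides the list, Csta2, a neighbour, was called as well. Cstdc5 ranged from 2.77 to 6.64 at P12 (median 3.92) and from 1.52 to 5.003 at P17 (median 2.41), with 11 of 12 P17 samples below the P12 median. It was 3.53-fold lower (-1.82 ± 0.43, adjusted p = 0.0311). Stfa3 ranged from 3.09 to 5.01 (median 3.58) and then from 1.18 to 3.54 (median 2.17), 3.08-fold lower (-1.62 ± 0.30, adjusted p = 0.00715), with all 12 P17 samples below the P12 median. Csta2 was lower by -1.48 ± 0.32 (adjusted p = 0.0214), Stfa1 by -1.70 ± 0.44 (0.0454) and Cstdc4 by -1.46 ± 0.38 (0.0455). Stfa1 was not among the 159 genes that held under both blocks and the software's signals. The samples of each group were widely spread here, with an SD of 1.24 at P12 for Stfa1. Stfa2 (-1.37 ± 0.44, adjusted p = 0.102) and Stfa2l1 (-1.36 ± 0.41, adjusted p = 0.0833) did not pass. Cstb, a stefin that most cells make, gave -0.09 ± 0.09 (adjusted p = 0.610).

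Neutrophil genes moved with them in part. Of 27 tested members of the neutrophil list 5 were called lower and 0 higher, against 1.04% of all genes called lower, and the list had a median of -0.31. Retnlg, a resistin-like protein of neutrophils, had the largest difference of all genes called: it ranged from 3.90 to 5.72 at P12 (median 4.85) and from 1.29 to 4.02 at P17 (median 2.92), 4.06-fold lower (-2.02 ± 0.30, adjusted p = 0.00153). With the scanner software's signals Retnlg differed by -0.45. Retnlg was not among the 159 genes that held under both blocks and those signals. Adam8, a membrane metalloprotease, was lower by -1.12 ± 0.24 (adjusted p = 0.0206), although its second probe gave -0.16 (adjusted p = 0.0972). Pglyrp1, which binds bacterial peptidoglycan, was lower by -0.74 ± 0.16 (adjusted p = 0.0189), G0s2, an inhibitor of fat breakdown, by -0.44 ± 0.10 (0.0284), and Mmp9, the gelatinase of neutrophil granules, by -0.63 ± 0.15 (0.0303). The neutrophil genes S100a8 (-0.27 ± 0.43, adjusted p = 0.771) and S100a9 (0.15 ± 0.28, 0.816) did not pass. The granule proteases of early neutrophil development, such as Elane (0.02 ± 0.19, adjusted p = 0.968), did not pass either.

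**Figure D2:**
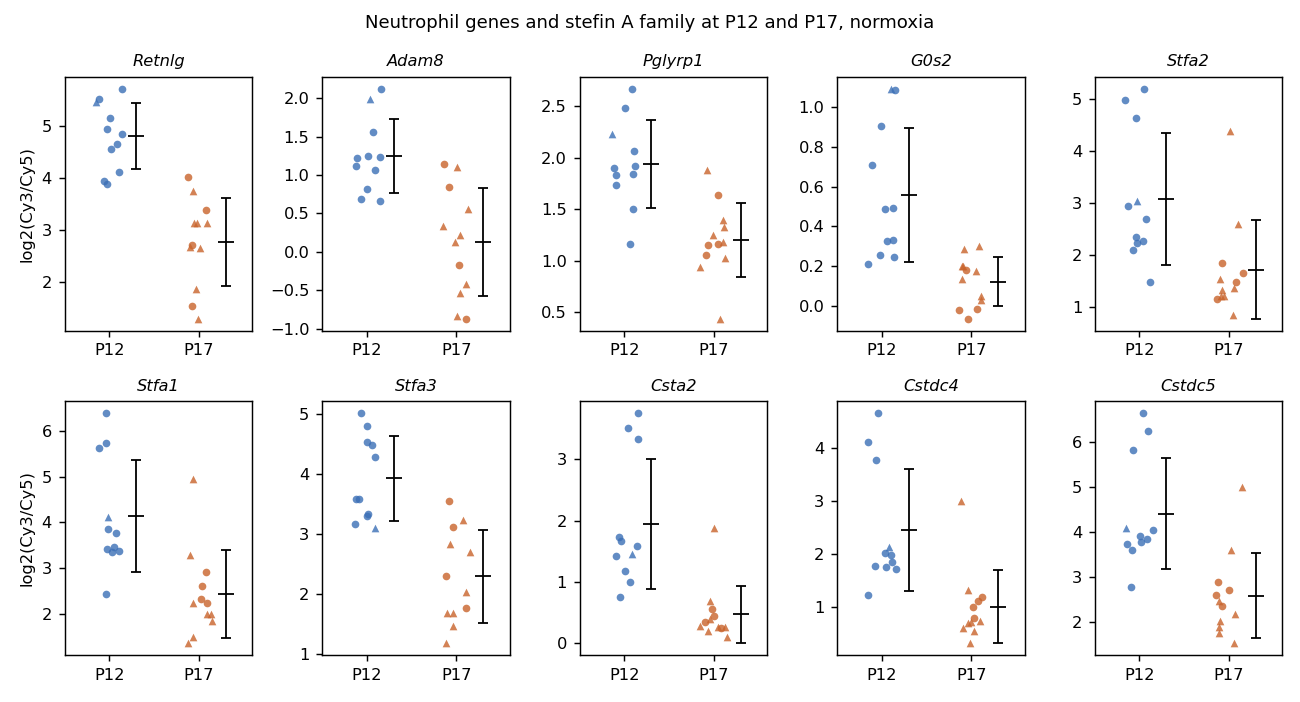
Log2(Cy3/Cy5) per array of 4 neutrophil genes and 6 stefin A family genes at P12 (blue, n = 11) and P17 (orange, n = 12), with circles for the first scan day, triangles for the second and black bars for the mean ± SD. Retnlg lies below the lowest P12 sample in 11 of 12 P17 samples, while 1 P17 sample of Stfa1 lies above the P12 median.

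For Retnlg, Adam8 and the 5 called stefin genes the differences were -2.04 to -1.17 with scan day as a block, where 1 of the 7 passed (Retnlg, adjusted p = 0.0368), and -1.82 to -0.94 on the first day alone. In Cy3 alone all 7 were called. Without the 3 arrays that stood apart, 6 of 7 stefin and 8 of 27 neutrophil genes were called, where 779 of all 12680 genes were, 507 of them lower. G0s2 also passed with the block (-0.59 ± 0.12, adjusted p = 0.0464). Its P17 ratios averaged 0.02 on the first day and 0.17 on the second, as low as those of Prg2 (0.18 and 0.31). The P17 level of G0s2 may therefore lie near the floor. The reference was not well above background on any array for Stfa3, Csta2 and Cstdc4.

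The monocyte list had a median of -0.39, against -0.01 over all genes, with 1 of its 22 tested members called lower, against 1.04% of all genes, and 20 negative. Klf4, a transcription factor of monocyte development, was lower by -0.84 ± 0.20 (adjusted p = 0.0296). Csf1r, the receptor for the monocyte growth factor, gave -0.77 ± 0.29 (adjusted p = 0.155) and was not called. The mean log2 Cy3 signal of the list ran from 9.16 to 10.3 at P12 and from 8.38 to 10.1 at P17, so the groups overlapped. Eno1 (-0.60 ± 0.14, adjusted p = 0.0267, with -0.23 and 0.356 for its second probe) and Pgam1 (-0.52 ± 0.11, adjusted p = 0.0191), enzymes of glycolysis, were the 2 called of 23 tested members of the glycolysis and hypoxia list, whose median was 0.03. The same 1.04% of all genes is the background of this count and of the next counts of lower genes. Sesn2, a sestrin induced by stress, was lower by -0.52 ± 0.10 (adjusted p = 0.0121) as the only call of 22 in the stress response list, and Tnfrsf13b, a receptor of B cells, by -0.32 ± 0.08 (adjusted p = 0.0297) as the only call of 21 in the mature B cell list. None of Klf4, Eno1, Pgam1, Sesn2 and Tnfrsf13b passed with scan day as a block, where they gave -0.62 to -0.28 with adjusted p from 0.193 to 0.352, and on the first day alone they gave -0.53 to -0.25. Leaving out 1 array took the call from Tnfrsf13b for 5 arrays and from Klf4 for 2. The median of the monocyte list was -0.27 with that block.

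Genes that were higher at P17 belonged to several functions. Nck2, an adaptor that links receptors to the actin skeleton, had the largest difference. It ranged from -0.15 to 1.82 at P12 (median 0.68) and from 0.36 to 3.23 at P17 (median 2.34), with 9 of 12 P17 samples above every P12 sample, and was 2.69-fold higher (1.43 ± 0.30, adjusted p = 0.0172). Aqp1, the water channel of red cells, ranged from -0.49 to 1.42 at P12 (median 0.78) and from 0.72 to 2.61 at P17 (median 1.85), 2.08-fold higher (1.06 ± 0.21, adjusted p = 0.0121). It was the only one of 39 tested genes of red cell membrane and maturation that was called, where 0.820% of all genes were called higher (the background also of the counts of higher genes that follow), and the median of that list was 0.04. Haem synthesis (14 tested, median 0.05) and globins (9 tested, median 0.33) had no call. These medians turned on the setting. For red cell membrane, haem synthesis and globins in that order they were 0.07, -0.03 and -0.05 with scan day as a block, 0.57, 0.69 and 0.68 with slide as a block, and -0.19, -0.23 and 0.07 with median centring, which called 5, 3 and 0 genes. Median centring called 388 of all 12680 genes, 384 of them lower. No direction is given for them. Arhgef12, an activator of the GTPase RhoA, was higher by 1.01 ± 0.26 (adjusted p = 0.0442), with its other tested probes at 0.22 (0.161) and 0.49 (0.167), and Tlr12, a receptor for microbial profilin, by 1.02 ± 0.23 (0.0267). Tlr12 was not among the 159 genes that held under both blocks and the software's signals.

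Lat, the adaptor through which the T cell receptor signals, ranged from -0.13 to 1.81 at P12 (median 0.30) and from 0.94 to 1.89 at P17 (median 1.29). All 12 P17 samples were above the P12 median, and Lat was 1.74-fold higher (0.80 ± 0.17, adjusted p = 0.0206). Lat was not among the 159 genes that held with scan day as a block, slide as a block and the software's signals. It was the only call among 26 tested T cell genes, against 0.820% of all genes called higher. Of the 26, 24 were positive and the median was 0.49, against -0.01 over all genes. That median was 0.42 with scan day as a block, 0.19 with slide as a block, 0.17 with median centring and 0.83 with the software's signals, and 0 of the 26 were called under either block. Cd3d gave 0.97 ± 0.31 (adjusted p = 0.0953) and Cd6 gave 0.93 ± 0.28 (0.0812). The mean log2 Cy3 signal of the T cell list ran from 7.39 to 9.45 at P12 and from 8.26 to 9.98 at P17. Without the 3 arrays that stood apart, 8 of the 26 were called, where 779 of all 12680 genes were, 272 of them higher. Platelet genes had the highest median of any list, 0.76 over 18 tested genes, and 0 of them were called: Ppbp, a chemokine of platelet granules, gave 1.33 ± 0.61 (adjusted p = 0.220). The platelet median was 0.66 with scan day as a block, with 0 called. The mean Cy3 signal of the platelet list spread from 7.73 to 11.3 among P12 samples and from 7.90 to 12.0 among P17 samples. Whether platelets or T cells played a part in the higher genes was not tested.

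Rtp4, an interferon-induced chaperone of receptors, ranged from -0.29 to 0.22 at P12 (median -0.03) and from 0.10 to 1.24 at P17 (median 0.60), with 10 of 12 P17 samples above every P12 sample. It was 1.59-fold higher (0.67 ± 0.12, adjusted p = 0.00671) and also passed with scan day as a block (0.83 ± 0.14, adjusted p = 0.0310). It was the only call of 27 tested interferon response genes, which had a median of 0.21 (-0.05 with median centring). Dtx3l, an E3 ubiquitin ligase, was higher by 0.65 ± 0.17 (adjusted p = 0.0447). Dut, which clears dUTP ahead of DNA synthesis, was higher by 0.72 ± 0.15 (0.0179), while 0 of 33 cell division genes were called and their median was -0.01. Ndufa4, a protein of the respiratory chain, was higher by 0.63 ± 0.15 (0.0286) as the only call of 76 in oxidative phosphorylation, and Ankrd28, a regulator of a protein phosphatase, by 0.72 ± 0.15 (0.0182). The other tested probes of Ankrd28 gave 0.45 (0.0579) and 0.03 (0.782). Mosmo (0.67 ± 0.15, adjusted p = 0.0221), Rab6b (0.61 ± 0.12, 0.0121) and R3hdm1 (0.61 ± 0.14, 0.0221) were also among the genes that kept an unadjusted p under 0.05 with scan day as a block, slide as a block and the software's signals. The second probe of R3hdm1 gave -0.09 (0.551). Igf2r, the receptor that removes the fetal growth factor IGF2, was the only call of 11 tested genes of fetal growth and imprinting (0.32 ± 0.08, adjusted p = 0.0342), and Mest gave 1.08 ± 0.30 (0.0583). Of 80 ribosomal protein genes 1 was called, Rps24 (0.31 ± 0.08, adjusted p = 0.0379), and one of its other probes gave -0.32 (0.343).

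**Figure D3:**
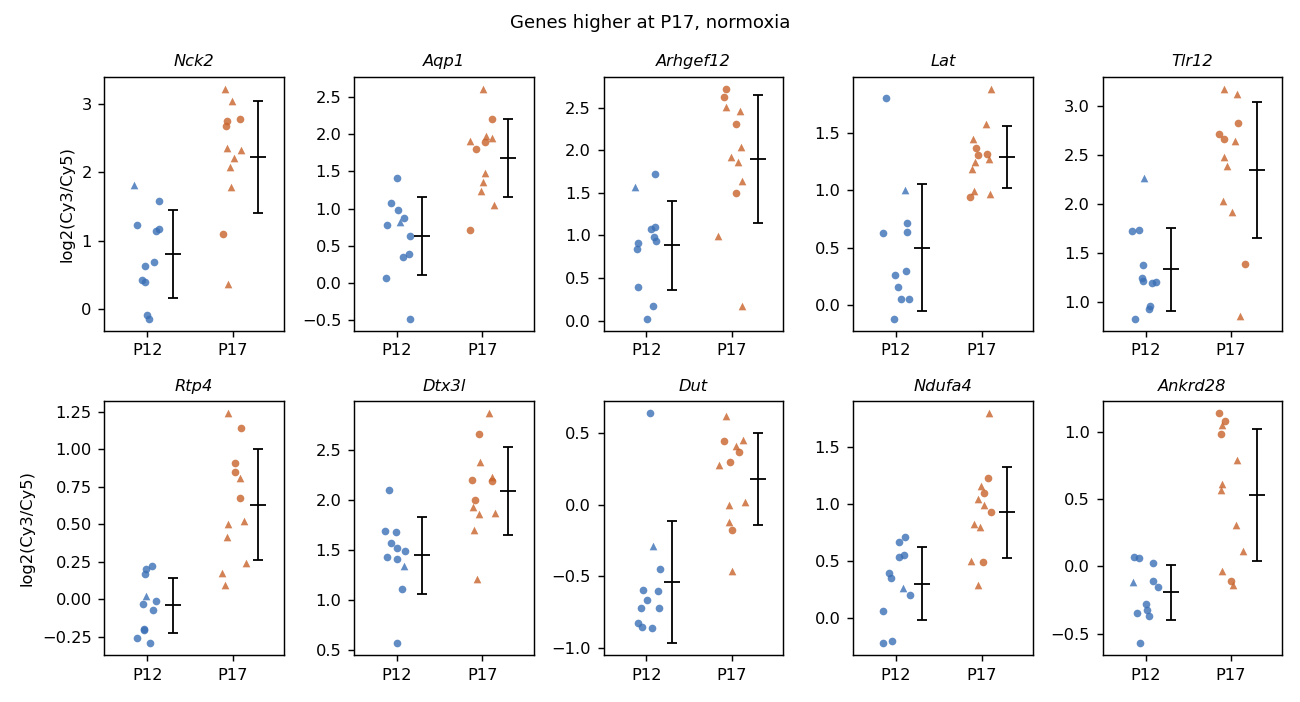
Log2(Cy3/Cy5) per array of 10 genes that were higher at P17, at P12 (blue, n = 11) and P17 (orange, n = 12), with circles for the first scan day, triangles for the second and black bars for the mean ± SD. The groups overlap for each gene; Rtp4 lies above every P12 sample in 10 of 12 P17 samples.

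Of the 18 higher genes named here that were called, Rtp4 alone passed with scan day as a block (first day alone 0.94) or with slide as a block. With scan day as a block Nck2 gave 1.33 ± 0.37 (adjusted p = 0.182), Aqp1 1.01 ± 0.27 (0.150), Lat 0.68 ± 0.21 (0.246), Dut 0.71 ± 0.19 (0.162) and Ndufa4 0.64 ± 0.19 (0.191). On the first day alone these 5 differed by 1.63, 1.05, 0.79, 0.80 and 0.63. The other called genes lay between 0.32 and 1.16 with the block, with adjusted p from 0.0605 to 0.289, and between 0.25 and 1.47 on the first day. Leaving out 1 array at a time took the call from Dtx3l for 18 of the 23 arrays, from Arhgef12 for 16, from Igf2r and Zbtb16 for 13 each, from Rps24 for 12, from Ndufa4 for 4 and from Tlr12 for 2. The reference channel was lower at P17 for some of the higher genes, with the widest shifts for Zbtb16, Eri2 and Tubb2a-ps2. Zbtb16 (1.04 ± 0.25, adjusted p = 0.0340), a transcription factor of innate-like lymphocytes, differed by 0.08 in Cy3 alone and by -1.05 in the reference channel alone. Eri2 (0.81 ± 0.16, adjusted p = 0.0128), an exonuclease family member, differed by 0.03 in Cy3 alone and by -0.71 in the reference, and its Cy3 signal was well above background on 6 of 11 P12 arrays and 2 of 12 P17 arrays. The tubulin pseudogene Tubb2a-ps2 (1.31 ± 0.28, adjusted p = 0.0179) differed by 0.75 in Cy3 alone (adjusted p = 0.0548) and by -0.67 in the reference. Neither Zbtb16 nor Tubb2a-ps2 was among the 159 genes that held under both blocks and the software's signals.

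**Figure D4:**
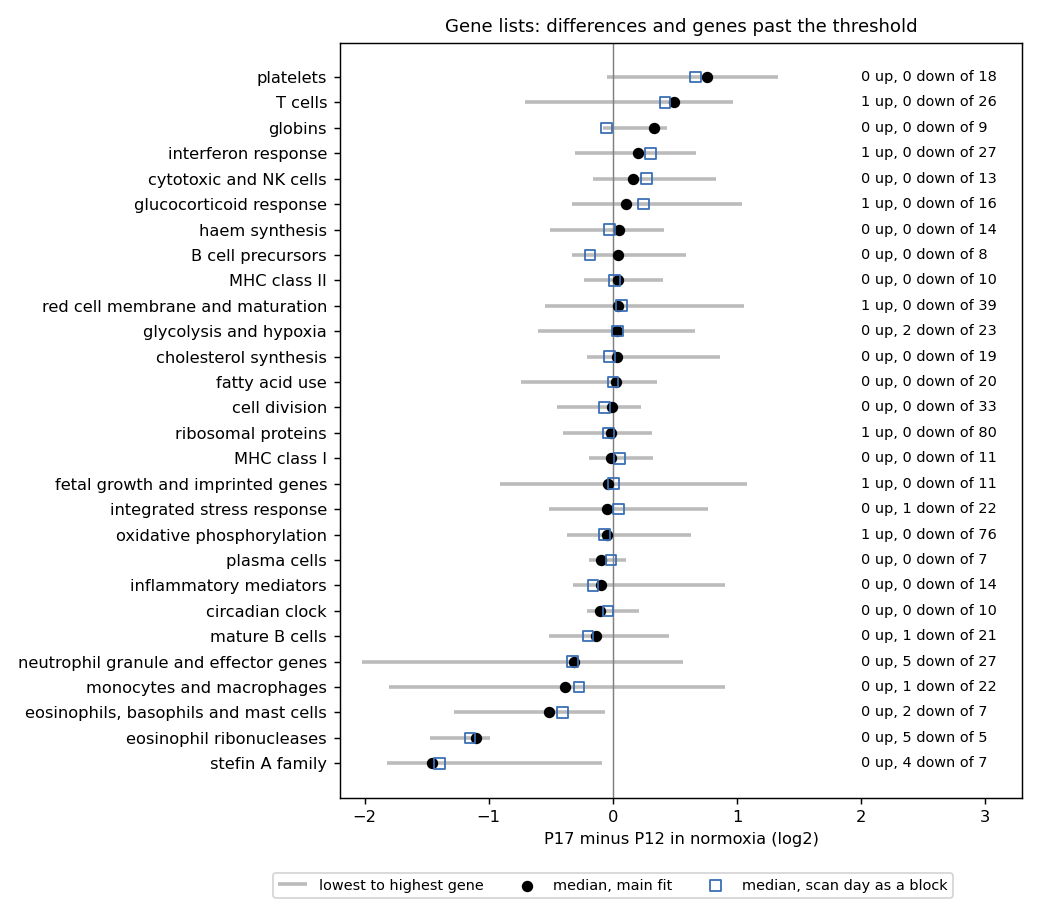
Differences between P17 and P12 in normoxia for the gene lists with at least 5 tested genes: black points are medians in the fit used here, open squares medians with scan day as a block, and grey lines run from the lowest to the highest gene. The stefin A family has the lowest median, -1.46, and the platelet genes the highest, 0.76, without a call among the platelet genes.

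**Figure D5:**
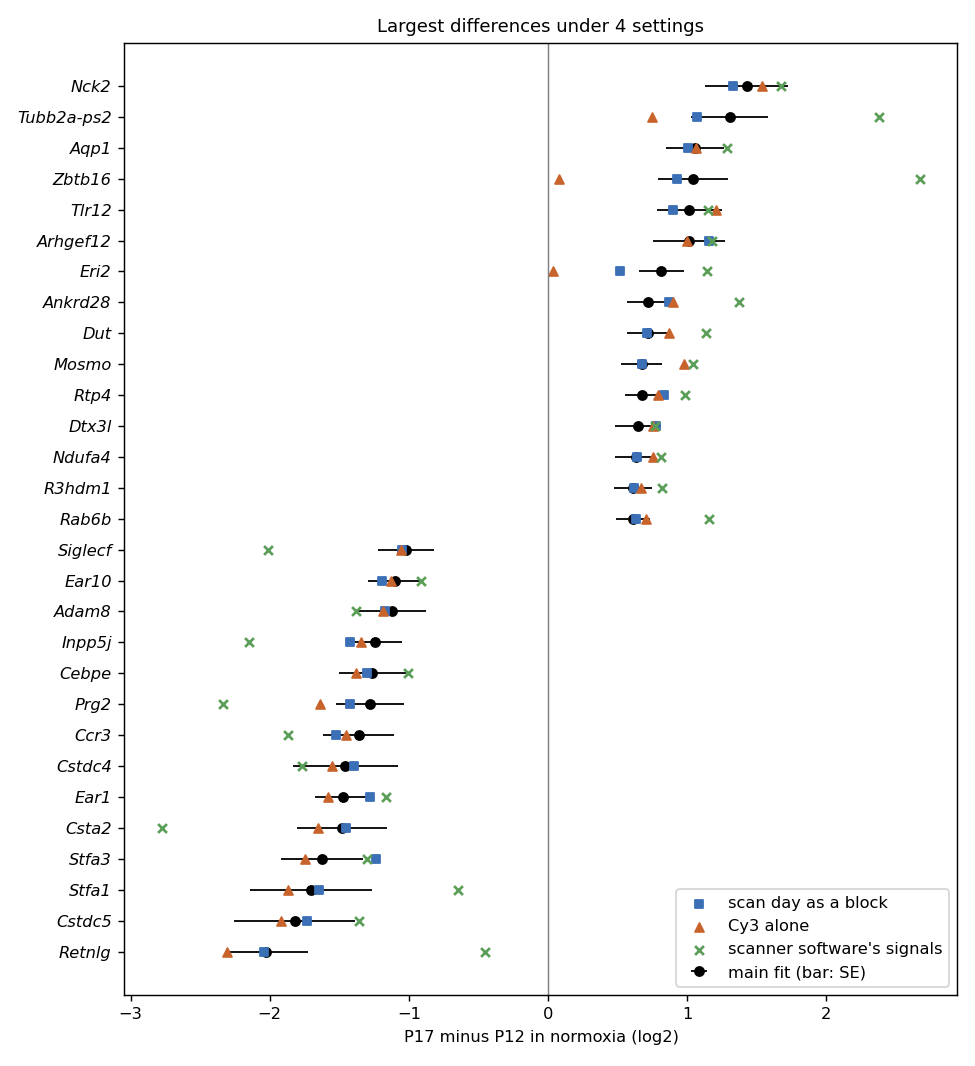
Difference between P17 and P12 in normoxia for the genes with the largest changes, in the fit used here (black, bars ± SE), with scan day as a block (blue), in Cy3 alone (orange) and with the scanner software's signals (green). Zbtb16 and Eri2 lie near 0 in Cy3 alone, at 0.08 and 0.03.

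The pups raised in hyperoxia share no array with the normoxia pups, and 9 of 10 of their P12 arrays and 11 of 12 of their P17 arrays were scanned on the first day. These pups were kept in high oxygen only until P12 and then returned to room air. Their change from P12 to P17 therefore holds both age and the end of the oxygen exposure, and these were not separated. The overlaps below are thus not a repeat of the age comparison alone. Of the 132 genes lower at P17 in normoxia, 49 (37.1%) were also called lower at P17 in hyperoxia, where 10.7% of all genes were. Of the 104 higher genes 22 (21.2%) were called higher there, against 6.64% of all genes. The 5 ribonucleases, Ccr3, Siglecf, Cebpe and Inpp5j were called lower in hyperoxia, by -1.58 to -0.72, as was Mcpt8 (-0.78 ± 0.18, adjusted p = 0.00163), which was not called in normoxia. For Ccr3 the change was -1.58 ± 0.24 (adjusted p = 3.52e-05) and for Ear1 -0.77 ± 0.24 (0.0208). Of Retnlg, Adam8 and the 5 called stefin genes, 6 were called lower in hyperoxia, and Stfa3 gave -0.88 ± 0.35 (adjusted p = 0.0681). The test of the difference between the 2 changes passed for 83 of 24711 probes (0.336%). For the 5 ribonucleases, Ccr3, Siglecf, Cebpe and Inpp5j it gave -0.25 to 0.70 with adjusted p from 0.230 to 0.968; the largest, Ear1, was 0.70 ± 0.34 (SE), which does not show that the changes were alike.

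At P28 in normoxia (n = 11), Ccr3 stood at 0.71 ± 0.26, against 2.04 ± 0.81 at P12 and 0.68 ± 0.44 at P17 (mean ± SD). Cstdc5 stood at 0.63 ± 0.59 at P28, after 4.40 ± 1.24 at P12 and 2.58 ± 0.94 at P17. Ear1 stood at 1.90 ± 0.69, between its P12 mean of 2.91 ± 0.53 and its P17 mean of 1.43 ± 0.48, and Retnlg at 3.63 ± 0.82, between 4.80 ± 0.64 and 2.78 ± 0.84. Of the P28 arrays, 10 of 11 were scanned on the first day, as were 10 of 11 at P12.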

How the data were processed

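Total RNA of mononuclear cells from mouse blood was labelled and hybridised with a universal reference RNA on 2-colour Agilent SurePrint G3 arrays. The authors deposited, for each spot, the median and background intensity of both channels, the processed intensity and flags, which per the file headers came from version 10.7.3.1 of Feature Extraction. They also deposited a matrix of log2 ratios, which matched log2(Cy3/Cy5) of the processed signals on 23 of 23 arrays (r = 1; column medians of -0.17 to 0.09). Intensities were corrected with normexp (offset 50) and normalised by loess in limma 3.58.1 (R 4.3.3), control and outlier spots were left out and spots of a probe averaged. Probes well above background in Cy3 on at least a share of 0.5 of the arrays of one group were tested with limma's moderated test and Benjamini-Hochberg adjustment over all 24711 probes. Of 56605 probes, 32994 matched a symbol (22911 genes, RefSeq names). Named genes were the 12 largest higher and lower genes that held with scan day block, slide block and software signals, the 5 largest calls in each direction, and up to 4 members per list. The members and lists were chosen with earlier results of these data known. The fit was also run on simulated data with independent noise and no effect of scan day, slide or litter. That run says nothing about how such effects bear on the calls. The number of arrays limits the precision. The labels and the methods name different RNA kits, and the P12 normoxia titles repeat mouse numbers of P12 hyperoxia and differ from their file names. Groups follow the titles.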

Additional observations from a re-analysis of the deposited data

Results flagged for a closer look

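Among the named genes, the change with age of Sars, the seryl-tRNA synthetase, differed between the oxygen groups. It was -0.29 ± 0.13 (SE) in normoxia (adjusted p = 0.207) and 0.38 ± 0.11 in hyperoxia (adjusted p = 0.0141), and the difference of 0.67 ± 0.16 had an adjusted p of 0.0369 in limma's test of the interaction. In Cy3 alone the normoxia change was -0.01. Over all 24711 probes, 83 (0.336%) passed this test, and 9 passed with scan day as a block. No value of Sars with that block is given here. The change in hyperoxia also spans the return of those pups to room air, which was not separated from age.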

How the results depend on the processing

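Against 448 probes past the threshold, median centring gave 869, the filter on every array 231, slide as a block 137, a block for scan day 31, the first scan day alone 1 and the second alone (1 P12 array) 5. All 6 groups in one fit gave 765, array weights 3882, the red cell covariate 2873, the detection share covariate 4111 and Cy5 alone 1. Of those chosen after seeing the data, Cy3 alone with scan day as a block gave 28, the 6 groups together with that block 220, and leaving out the 3 arrays that stood apart 1515. An unadjusted p under 0.05 was reached by 4981 probes in the fit used here, by 2631 with the block and by 2911 on the first day. Leaving out 1 array gave 220 to 763. It fell below 300 without P12 replicates 7 (297), 9 (246) or 11 (273) or P17 replicates 3 (277), 8 (231), 9 (281) or 12 (220), and rose to 742 without P12 replicate 2 and 763 without P17 replicate 4. The cause was not tested. The oxygen difference gave 9 probes with scan day as a block and 128 with the software's signals, against 83.

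On scan day 1 alone the share of probes above background in Cy3 differed by -3.07, in Cy5 by 3.54 (exact permutation p = 0.0190) and the spike-in ratio by -0.0740. Of 50 named genes, 42 of them called, the direction turned for Ear2 with the software's signals and the matrix (0.94 each). The dimmest probe gave -0.0906 for R3hdm1 and -0.32 for Rps24. On scan day 2 alone R3hdm1 gave -0.0301, Zbtb16 -0.16, Mest -0.0610 and Ppbp -0.50. In the reference channel alone the direction turned for Arhgef12 (-0.00404), Cd3d (-0.0205), Ear10 (0.00180), Eno1 (0.0308), Eri2 (-0.71), Igf2r (-0.0566), Klf4 (0.16), R3hdm1 (-0.00790), Rps24 (-0.17), Sars (0.15), Sesn2 (0.0546), Tnfrsf13b (0.0112), Tubb2a-ps2 (-0.67) and Zbtb16 (-1.05). Leaving out 1 array took the call from 13 of the 42, the highest adjusted p being 0.0824 for Arhgef12, 0.0822 for Cstdc4 and 0.0810 for Stfa1. No paired analysis was possible because pups were killed when their blood was taken, so no pup was sampled at P12 and again at P17.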
